A study of Mus musculus with 3 samples.

Results

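Axon guidance ligands and receptors were examined in hydroxymethylated DNA immunoprecipitation (hMeDIP) libraries of mouse cerebellum, in which an antibody against 5-hydroxymethylcytosine (5hmC) pulls down DNA fragments and a nanopore then reads the state of each CpG directly. Members were the protein-coding genes of GENCODE M39 whose symbols place them among the semaphorins, plexins, netrins, Unc5 proteins, Slits, Robos, ephrins, Eph receptors, neuropilins or repulsive guidance molecules, plus Dcc and Neo1, and amounted to 76 of 21757 protein-coding genes (39 ligands and 37 receptors). The symbol rule also took in Unc50, which is not a netrin receptor, and Unc5cl, a relative of the Unc5 receptors. Both are counted with the Unc5 family and among the 37 receptors. There was 1 group: DNA from the cerebellum of a C57Bl6Cr female, 8 weeks old, sheared, then sonicated as 3 replicates to a mean of 362 bp, with 1 µg in each immunoprecipitation. The library names give a single animal for all 3 replicates, so that the spread between replicates does not cover differences between mice. Replicate 1 was made with whole serum α-5hmC antibody, whereas IgG-purified α-5hmC antibody was used for replicates 2 and 3. There was no genotype, treatment or time point to compare, and bulk cerebellum mixes neurons and glia.

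Peaks of fragment coverage had been called on each replicate alone, and replicates 1, 2 and 3 had 496, 8544 and 5166 peaks. Overlapping peaks were merged into 13339 regions, and a region was given to a gene when its midpoint lay in the gene body or up to 1000 bp upstream. The members held 155 regions, with 5 peaks of replicate 1, 95 of replicate 2 and 64 of replicate 3. CpG base-calls in these regions, each of them 5hmC, 5-methylcytosine (5mC) or unmodified C, numbered 465, 1098 and 785 in replicates 1, 2 and 3. Calls of a replicate were counted in every merged region, with or without a peak of its own, and the median CpG site had 1 call in each replicate.

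Axon guidance molecules steer growing axons and migrating neurons by attraction and repulsion. Semaphorins signal through plexins, with neuropilins as co-receptors for the secreted class 3; netrins attract through DCC and repel through Unc5 receptors; Slits repel through Robo receptors; and ephrins and Eph receptors signal between touching cells. Some of these molecules also act at synapses of the mature brain. 5hmC is made from 5mC by TET enzymes and is abundant in the gene bodies of neurons.

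At least 1 region was found in 37 of the 76 members, against a background of 20% of protein-coding genes, a share that takes no account of gene length. Of these 37 genes, 13 had 1 region, 16 had 2 to 5 and 8 had more than 5. Those 8 genes (Ephb1, Slit3, Ephb2, Nrp2, Unc5b, Sema6d, Ntng2 and Unc5a) held 94 of the 155 regions. Only 8 member regions, or 5.16%, had peaks of 2 or more replicates, beside 6.10% of all regions in protein-coding genes. Of the rest, 87 had a peak of replicate 2 alone, 56 of replicate 3 alone and 4 of replicate 1 alone.

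The sequences of the 8 regions with peaks in more than 1 replicate are given to show the density of CpGs in the pulled-down DNA and which of them carried the mark. Each is up to 300 bases around the summit of the strongest peak, from the forward strand of GRCm39 (mm39), with a CpG in capitals where at least 1 of the 3 replicates gave a 5hmC call. A CpG in lower case had no 5hmC call, and a few of these had no call of any state. The stretches lie at chr17:24426797-24427092 (Ntn3), chr15:89051758-89052057 (Plxnb2), chr6:115943709-115944008 (Plxnd1, exon 18), chr6:115940763-115941062 (Plxnd1, intron 21), chr13:51933648-51933947 (Sema4d), chr2:124475594-124475893 (Sema6d), chr9:102181334-102181633 (Ephb1, intron 1) and chr9:101879116-101879415 (Ephb1, intron 6), and all of these genes but Sema6d are on the reverse strand.
Ntn3: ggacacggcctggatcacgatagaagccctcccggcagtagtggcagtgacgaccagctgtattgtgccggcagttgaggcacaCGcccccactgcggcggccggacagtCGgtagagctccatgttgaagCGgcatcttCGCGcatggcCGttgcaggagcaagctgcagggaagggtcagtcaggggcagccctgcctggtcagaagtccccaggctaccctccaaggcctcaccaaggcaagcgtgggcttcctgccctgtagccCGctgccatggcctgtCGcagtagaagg
Plxnb2: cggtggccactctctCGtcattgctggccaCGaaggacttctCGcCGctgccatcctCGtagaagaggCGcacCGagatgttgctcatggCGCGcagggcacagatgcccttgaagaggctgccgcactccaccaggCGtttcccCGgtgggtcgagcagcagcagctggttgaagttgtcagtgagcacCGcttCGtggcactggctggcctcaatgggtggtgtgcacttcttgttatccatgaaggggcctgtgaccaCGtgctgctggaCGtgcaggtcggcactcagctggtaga
Plxnd1 exon 18: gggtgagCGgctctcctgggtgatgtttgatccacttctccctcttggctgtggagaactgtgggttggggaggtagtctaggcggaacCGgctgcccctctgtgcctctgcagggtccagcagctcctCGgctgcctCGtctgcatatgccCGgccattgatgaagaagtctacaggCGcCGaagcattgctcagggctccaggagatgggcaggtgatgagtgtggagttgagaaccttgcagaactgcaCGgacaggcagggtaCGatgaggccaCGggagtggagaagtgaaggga
Plxnd1 intron 21: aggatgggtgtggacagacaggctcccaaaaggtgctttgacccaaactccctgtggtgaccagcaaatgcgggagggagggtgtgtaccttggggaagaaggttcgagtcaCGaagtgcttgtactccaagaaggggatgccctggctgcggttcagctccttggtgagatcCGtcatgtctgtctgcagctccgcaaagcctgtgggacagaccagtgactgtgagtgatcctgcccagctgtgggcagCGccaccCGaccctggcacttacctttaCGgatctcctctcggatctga
Sema4d: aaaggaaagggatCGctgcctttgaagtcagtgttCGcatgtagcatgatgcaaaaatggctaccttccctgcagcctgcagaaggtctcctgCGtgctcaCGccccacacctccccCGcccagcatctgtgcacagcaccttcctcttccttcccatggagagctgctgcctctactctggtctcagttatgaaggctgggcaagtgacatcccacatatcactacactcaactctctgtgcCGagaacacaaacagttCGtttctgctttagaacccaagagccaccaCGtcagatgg
Sema6d: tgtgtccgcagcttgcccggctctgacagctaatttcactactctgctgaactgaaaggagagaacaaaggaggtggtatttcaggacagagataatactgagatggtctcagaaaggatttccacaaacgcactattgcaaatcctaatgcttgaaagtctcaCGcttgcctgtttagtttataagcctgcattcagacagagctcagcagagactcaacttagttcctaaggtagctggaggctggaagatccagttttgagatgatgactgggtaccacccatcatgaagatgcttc
Ephb1 intron 1: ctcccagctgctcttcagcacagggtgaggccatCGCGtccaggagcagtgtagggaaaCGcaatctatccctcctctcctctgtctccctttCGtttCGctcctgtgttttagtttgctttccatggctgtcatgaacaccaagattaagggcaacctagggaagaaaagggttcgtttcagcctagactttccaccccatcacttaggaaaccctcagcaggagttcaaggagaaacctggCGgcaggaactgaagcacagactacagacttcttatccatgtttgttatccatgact
Ephb1 intron 6: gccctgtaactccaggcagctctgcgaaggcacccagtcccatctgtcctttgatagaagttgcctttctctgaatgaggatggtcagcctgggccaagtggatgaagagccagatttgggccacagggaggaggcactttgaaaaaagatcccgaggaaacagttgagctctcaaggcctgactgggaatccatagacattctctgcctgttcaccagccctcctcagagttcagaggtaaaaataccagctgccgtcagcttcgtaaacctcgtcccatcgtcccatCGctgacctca

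These stretches differed in CpG density and in the share of CpGs with the mark. In the Ntn3 stretch 8 of 17 CpGs had a 5hmC call, and 14 of its 64 calls were 5hmC. The unmarked CpGs there were not unmethylated, as 49 of the 64 calls were 5mC and 1 was unmodified C. In the Plxnb2 stretch 15 of 19 CpGs were marked, with 27 of 79 calls, and in the exon 18 stretch of Plxnd1 10 of 11, with 37 of 75 calls. All 8 CpGs of the Sema4d stretch were marked, with 10 of 12 calls and no unmodified C. In the intron 1 stretch of Ephb1 6 of 7 CpGs were marked, with 15 of 23 calls, whereas in its intron 6 stretch 1 of 7 was marked and 4 of 6 calls were unmodified C. The intron 21 stretch of Plxnd1 was marked at 5 of 10 CpGs (5 of 16 calls) and that of Sema6d at 1 of 4 (1 of 4 calls). Some unmarked CpGs had no call at all. Calls covered 5 of 7 CpGs in the intron 6 stretch of Ephb1, 3 of 4 in Sema6d and 18 of 19 in Plxnb2. Every CpG of the other stretches had a call. Depth was low at any one CpG: the most heavily marked site of the exon 18 stretch of Plxnd1, at position 115943847, had 8 5hmC calls among 9.

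The region in Ntn3, which encodes netrin 3, was the sole member region with a peak in all 3 replicates. It covers 1919 bp at chr17:24426082-24428000 with 73 CpGs, and its midpoint lies in coding exon 1, 1.53 kb from the gene start. At its summits in replicates 1, 2 and 3 the fold enrichment over background was 3.78, 4.79 and 3.87. Its 5hmC calls were 10 of 72, 30 of 106 and 5 of 9, so that the replicate with the highest share also had the fewest calls. Over the replicates 24.1% of calls were 5hmC (45 of 187, exact binomial 95% interval 18.1 to 30.8) and 58.3% were 5mC.

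Plexins, the semaphorin receptors, held 3 of the 8 regions with peaks in more than 1 replicate, all of them with peaks of replicates 2 and 3. In Plxnd1, the receptor of Sema3e, one lay at chr6:115943331-115944232 in coding exon 18, with 22 of 56, 10 of 22 and 17 of 37 calls in replicates 1 to 3. These are close shares in the 3 libraries, and pooled they gave 42.6% 5hmC (33.4 to 52.2). The other Plxnd1 region, at chr6:115940763-115941224 in intron 21, had 3 of 9 and 6 of 14 calls in replicates 1 and 2 and no call in replicate 3. In Plxnb2, a receptor of class 4 semaphorins that is prominent in cerebellar granule cell precursors, the region lay at chr15:89051758-89052131 in coding exon 4. Its 5hmC calls were 7 of 14, 7 of 35 and 14 of 34, or 33.7% pooled (23.7 to 44.9), with replicate 2 the lowest.

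Class 4 and class 6 semaphorins are membrane-bound ligands, and a first intron held the shared region of each of these classes. In Sema4d, a ligand of plexin B receptors, the region at chr13:51933523-51933970 had 5 of 6, 5 of 6 and 7 of 10 calls in replicates 1, 2 and 3. All 3 replicates were high, and the pooled 77.3% 5hmC (17 of 22 calls, 54.6 to 92.2) was the highest of the 77 member regions with at least 10 calls, whose median was 33.7%. In Sema6d, the region at chr2:124475533-124476314 had no call in replicate 1 and 6 of 12 and 3 of 7 in replicates 2 and 3. The remaining shared regions were in Ephb1, a receptor of B-type ephrins. At chr9:102181334-102181775 in intron 1 they gave 0 of 1, 12 of 18 and 7 of 13 5hmC calls (59.4% pooled, 40.6 to 76.3), and at chr9:101879053-101879457 in intron 6 they gave 2 of 2, 0 of 6 and no call.

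The number of regions of each gene was then set against its length, at the rate over all protein-coding genes of 0.999 regions per 100 kb, with an exact two-sided Poisson test on genes with an expected number of at least 1. Ephb1, Ephb2, Nrp2 and Slit3 held more regions than their length gave and 3 long receptor genes held none. Of 34 members tested, 4 were called for more regions (background 8.95% of 2591 genes) and 3 for fewer (background 3.28%), at a Benjamini-Hochberg adjusted p below 0.05 over all genes tested. A further 4 members passed only without adjustment. That made 11 of 34 members at an unadjusted p below 0.05, beside 517 of all 2591 genes tested. The smallest expected number of any gene called for fewer regions was 5.86, so that shorter genes could be called only for more. The test covers counting error only, and region numbers varied between genes by more than that: the median ratio of observed to expected was 0.315 over the members tested and 0.274 over all genes tested, and 41.2% of the members tested and 46.7% of all genes tested had no region.

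**Figure D1:**
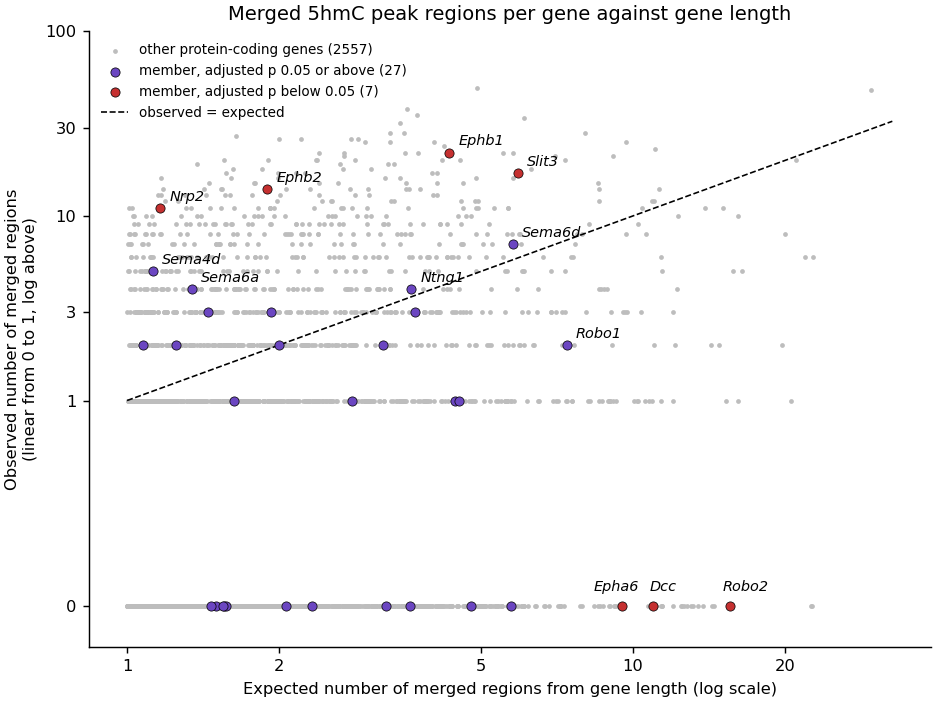
Observed number of merged regions of each protein-coding gene (vertical, linear from 0 to 1 and logarithmic above) against the number expected from its length (horizontal, logarithmic), for the 2591 genes with an expected number of at least 1. Members are coloured, the 7 called members are red, and the dashed line marks equality: Ephb1, Slit3, Ephb2 and Nrp2 lie above it and Epha6, Dcc and Robo2 lie at 0.

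Ephb1 (chr9:101799327-102231898, 433 kb) had the most regions of any member, with 22 against 4.33 expected, a ratio of 5.08 (exact 95% interval 3.18 to 7.69, exact Poisson test, adjusted p = 1.49e-07). It had 1 peak in replicate 1, 12 in replicate 2 and 11 in replicate 3, so that both libraries of the purified antibody were high. Taken alone, replicate 2 gave 4.35 and replicate 3 gave 6.53 times the expected number. Of its regions 13 lay in the first intron, between 4.11 and 97.4 kb from the gene start, and 9 in later introns.

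Ephb2 (chr4:136374850-136563351, 189 kb), the closely related receptor, had 14 regions against 1.89 expected, a ratio of 7.40 (4.04 to 12.4, adjusted p = 1.27e-06 by the exact Poisson test). No peak came from replicate 1, 10 came from replicate 2 and 4 from replicate 3. With the expected number set by CpGs the ratio fell to 4.64, on 3.02 expected. Of its 14 regions 7 were in the first intron. A region in coding exon 3, at chr4:136498278-136498579, was mostly methylated, with 7 5hmC and 25 5mC calls of 34, and an lncRNA gene (Gm68598) overlaps it on the other strand.

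Nrp2 (chr1:62742444-62857854, 115 kb), the neuropilin that pairs with plexins as receptor of Sema3f, had 11 regions against 1.16 expected, a ratio of 9.46 (4.72 to 16.9, adjusted p = 3.46e-06 by the exact Poisson test). Peaks numbered 0, 5 and 6 in replicates 1, 2 and 3, and no region was shared. A region of replicate 2 at chr1:62823907-62824338 and a region of replicate 3 at chr1:62824339-62824640 lay directly side by side, however. They count as separate regions because only peaks overlapping by at least 1 bp were merged. Of the 11 regions 8 lay within 10.2 kb, between 71.9 and 82.0 kb from the gene start, which takes in introns 12 to 14 and coding exon 13. This stretch was singled out after its values were seen. The other neuropilin, Nrp1, had no region against 1.47 expected.

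Slit3 (chr11:35011789-35602786, 591 kb), a secreted Robo ligand, had 17 regions against 5.91 expected, a ratio of 2.88 (1.68 to 4.60, adjusted p = 0.00386 by the exact Poisson test). It had 0, 8 and 9 peaks in replicates 1, 2 and 3, again at 17 separate places. Of these regions 14 were in later introns, and 8 of them fell within 44.0 kb of intron 4, a stretch also picked after its values were seen. Slit1 had 3 regions against 1.44 and Slit2 had none against 3.25. In the 4 genes called for more regions, 2 of 64 regions had peaks of more than 1 replicate.

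The longest receptor genes had no peak in any replicate. Robo2 (chr16:73688727-75244270, 1556 kb), a Slit receptor, had 0 regions against 15.5 expected (ratio at most 0.237 by the exact 95% interval, adjusted p = 1.20e-05, exact Poisson test). Dcc (chr18:71386705-72484179, 1097 kb), the netrin receptor, had 0 against 10.97 (at most 0.336, adjusted p = 0.000629, exact Poisson test). Epha6 (chr16:59473846-60425894, 952 kb), a receptor of A-type ephrins, had 0 against 9.52 (at most 0.388, adjusted p = 0.00219, exact Poisson test). The nearest regions outside these genes were 921 and 396 kb away for Robo2, 679 and 781 kb for Dcc and 1952 and 1030 kb for Epha6, so the empty stretch reached beyond each gene. All 3 genes are poor in CpGs, with 5.94, 5.65 and 5.62 CpGs per kb, below the lower quartile of 7.02 over all genes tested (median 9.08). The 4 genes with more regions had 10.4 (Ephb1), 16.2 (Ephb2), 13.6 (Nrp2) and 11.97 (Slit3) CpGs per kb. In the exact Poisson test with the expected number set by CpGs in place of length, Ephb1, Ephb2, Nrp2, Slit3, Robo2 and Dcc were again called, Epha6 was not (adjusted p = 0.0852), and Unc5b and Unc5a passed. The upper limits of the ratio were then 0.406 for Robo2, 0.605 for Dcc and 0.701 for Epha6.

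These calls rested in part on the most deeply peaked library. In the exact Poisson test without replicate 2, Ephb1 and Slit3 were called and the 3 empty genes were not (adjusted p = 0.0501 for Robo2, 0.167 for Dcc and 0.273 for Epha6, with upper limits of the ratio of 0.563, 0.798 and 0.919), whereas Ephb2 and Nrp2 fell below an expected number of 1 and could not be tested. Without replicate 3, Slit3 was not called (adjusted p = 0.429, exact Poisson test) and Nrp2 could not be tested. With peaks of at least 4-fold enrichment 37 member regions were left and no member was called. Slit3 had 3.24 times its expected number there, and Ephb1, Ephb2 and Nrp2 (3.32, 7.58 and 16.5 times) fell below an expected number of 1 and could not be tested.

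Among members too short to be tested, Unc5b (chr10:60598372-60667396, 69 kb), a repulsive netrin receptor, had the most regions, with 11 against 0.699. Its peaks numbered 0, 7 and 4 in replicates 1, 2 and 3, and 8 of the 11 regions lay in the first intron. Unc5a had 6 regions against 0.582, all in the first intron, Ntng2 had 6 against 0.594, Plxnd1 had 5 against 0.415 and Sema4c had 4 against 0.112. With the expected number set by CpGs the ratios fell from 15.7 to 8.44 for Unc5b, from 10.3 to 5.28 for Unc5a, from 10.1 to 6.397 for Ntng2, from 12.1 to 5.58 for Plxnd1 and from 35.6 to 11.2 for Sema4c. In a test over all 21757 protein-coding genes with no minimum, added after the data were seen, these 5 genes and the 7 above had an adjusted p below 0.05 (background 1.59% of genes for more regions and 0.234% for fewer). A short gene with a few regions passes there easily, and one with none cannot. Of the longer members with 4 or more regions, Sema6d had 7 against 5.78, Sema4d 5 against 1.12, Ntng1, a netrin-G, 4 against 3.64 and Sema6a, a class 6 semaphorin, 4 against 1.34, and none of these 4 was called.

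**Figure D2:**
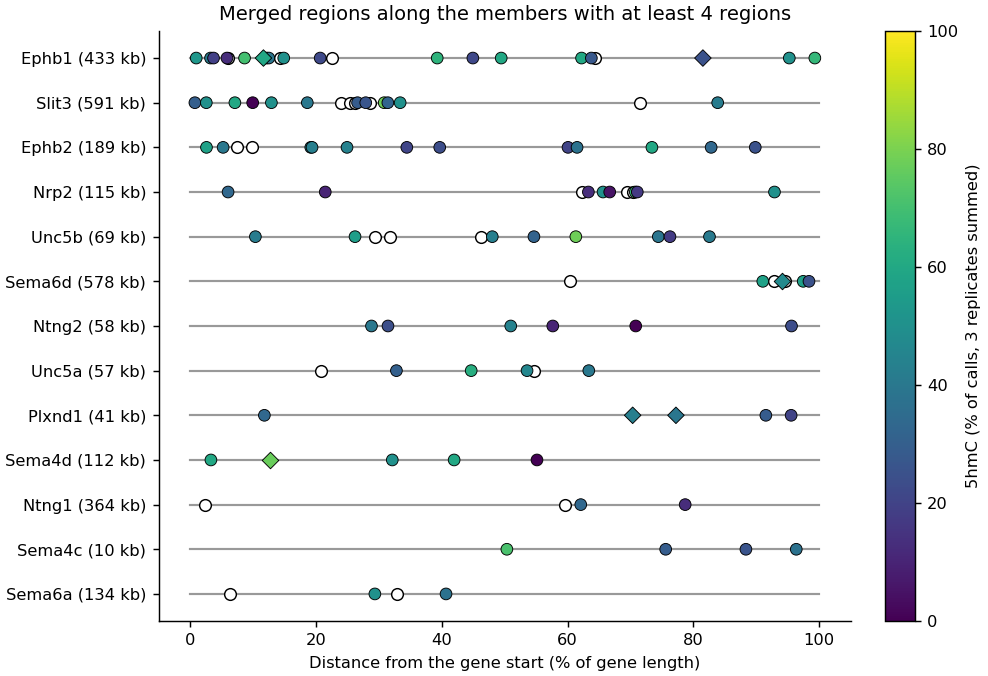
Merged regions (symbols) along the 13 members with at least 4 regions, as distance from the gene start in percent of the gene's length (horizontal). Colour gives the 5hmC share of the summed calls of the 3 replicates, open symbols had fewer than 5 calls, and diamonds mark peaks of more than 1 replicate. Nrp2 and Slit3 have many of their regions in a cluster. Sema6d has most near the far end of the annotated gene, though 5 of its 7 are in the first intron of its canonical transcript. Ephb1 has 13 of its 22 regions in the first intron and the others further along the gene.

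By role, receptors had 89 regions against 87.4 expected from their length, a ratio of 1.02, and ligands had 66 against 50.0, a ratio of 1.32. With the expected number set by CpGs the ratios were 1.29 and 1.32. The difference between the roles was not tested. Single families lay further apart. Class 3 semaphorins, the secreted neuropilin ligands, had no region in any of their 7 genes against 11.3 expected (7.61 by CpGs). None of the 4 class 3 genes long enough to be tested was called (Sema3a, 0 against 4.79, adjusted p = 0.108, exact Poisson test). All 4 had expected numbers under 5.86, the smallest of any gene called for fewer, so that even an empty gene of this length could not be called. Robo receptors had 2 regions against 23.3 (16.1 by CpGs), both in Robo1 (expected 7.39). The pair of Dcc and Neo1 had 1 against 12.6 (7.33 by CpGs), in Neo1. Netrins, in contrast, had a region in all 6 genes, 17 against 7.42. Of these 17, 4 were in Ntng1 and 6 in Ntng2, the netrin-G genes that are counted with this family. Unc5 genes had 21 against 11.7 with none in Unc5d (0 against 5.73, also under 5.86, adjusted p = 0.0524, exact Poisson test), and plexins had 10 against 9.80. Eph receptors had 44 against 27.4, of which 36 were in Ephb1 and Ephb2, and Epha4, Epha5 and Epha7 had none. Their ephrin ligands had 3 regions against 3.96, in Efna2 and Efna5. These family sums are descriptions, since a single long gene can set them.

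**Figure D3:**
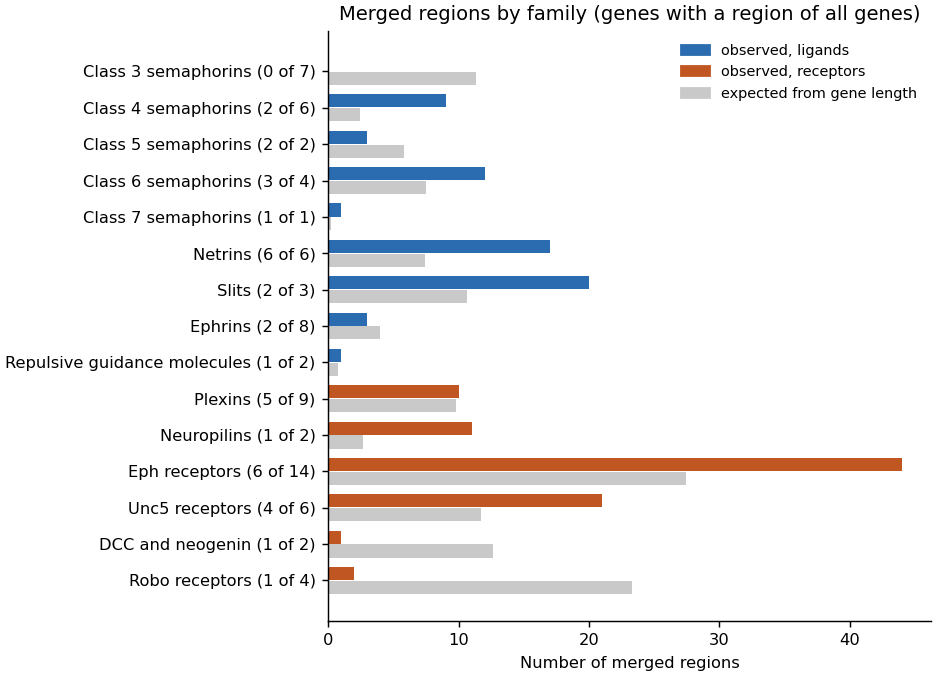
Number of merged regions by family (horizontal), observed in blue for ligands and orange for receptors and expected from gene length in grey, with the genes that held a region of all genes in brackets. Class 3 semaphorins had 0 regions against 11.3 expected, and Eph receptors had the most, 44.

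The 3 members on the X chromosome (Efnb1, Plxna3 and Plxnb3) had no region. That chromosome had 0.271 regions per Mb, against 5.94 on chromosome 18, where Dcc lies, and 4.48 on chromosome 16, where Robo2 and Epha6 lie. The part of the chromosome in the empty X-linked genes was not tested.

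Within genes, 63 of the 155 member regions (40.6%) lay in the first intron of the canonical transcript, against 31.2% for other protein-coding genes, where a region in overlapping genes counts once for each gene. Later introns held 41.9% against 46.9%, and coding exons 12.3% against 8.76%. No test was made of these shares. At gene starts, which are short stretches, 2 midpoints fell in the 1 kb upstream (1.29%, against 2.42%) and 1, that of Ntn3, in a first exon. One upstream region belonged to Ephb3, a B-type Eph receptor, at chr16:21022616-21022910, with its midpoint at -0.732 kb from the start. It had a peak of replicate 1 alone at 5.92-fold, the strongest of the 5 member peaks of that replicate, and 5hmC calls of 4 of 19, 1 of 8 and 4 of 16, with 19 of the 43 calls unmodified. The other belonged to Efna2, an A-type ephrin, at chr10:80014679-80015049, with its midpoint at -0.402 kb, a 5.81-fold peak of replicate 3 alone and 2 of 12 calls 5hmC.

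Over all member regions the 5hmC shares of replicates 1, 2 and 3 were 33.1%, 35.2% and 32.6% (33.7% ± 1.40, SD, n = 3 libraries). Regions of other protein-coding genes gave 31.0%, 32.7% and 33.0% (32.2% ± 1.096), where 4 regions in which single CpGs had 20 or more calls were left out. The difference was 2.14 and 2.52 percentage points in replicates 1 and 2 and -0.386 in replicate 3, on both sides of 0. In several settings added after the data were seen it was larger, though without replicate 1 it was 1.49 points. At CpGs inside a replicate's own peaks, which leaves out the rest of each merged region, it was 4.43 ± 1.36 points and above 0 in every library (2.97 to 5.66), though replicate 1 had only 51 member calls there, 18 of them 5hmC. In introns alone it was 3.76 ± 3.82, below 0 in at least 1 library. In bulk DNA such a share cannot tell a mark on all copies of a CpG in some cell types from a weaker mark in every cell type. Over all member regions 5mC and unmodified C differed in the same direction in each library. 5mC was 47.5%, 44.0% and 46.5% in the members against 39.7%, 39.3% and 39.2%, a mean difference of 6.60 ± 1.68 points. Unmodified C was 19.4%, 20.8% and 20.9% against 29.3%, 28.0% and 27.8%, a mean difference of -8.02 ± 1.70 points. Among the 77 member regions with at least 10 calls, 5hmC made up 50% or more in 15, 5mC in 33 and unmodified C in 6, and 1 region, in Slit3, had no 5hmC call. Of the 148 member regions with any call, 132 had at least 1 5hmC call. The regions of Ntn3 and Sema6c held 336 of the 2348 member calls, or 14.3%. With these 2 removed from the members, and nothing from the other genes, the difference in 5hmC was 4.30 ± 3.45 points, a rise that follows from their low 5hmC. The difference in 5mC was then 3.01 ± 2.41 points and that in unmodified C -7.31 ± 2.25. The difference in 5mC was 1.83 ± 2.55 points in introns alone and 2.245 ± 5.46 inside own peaks, negative in at least 1 library in both, and that in unmodified C was -5.59 ± 2.199 in introns.

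**Figure D4:**
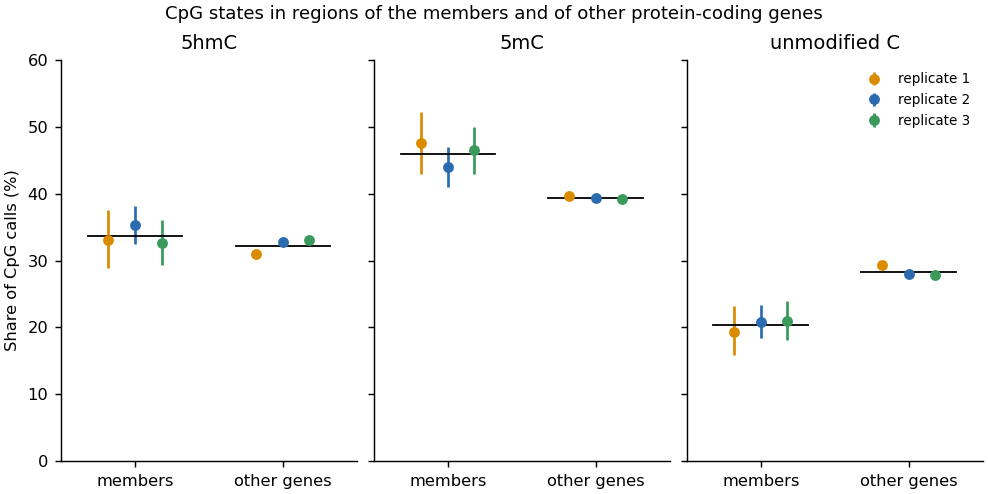
Share of CpG calls (vertical, percent) that were 5hmC, 5mC or unmodified C in the regions of the members and of other protein-coding genes. Points are replicates with exact binomial 95% intervals and lines are means of 3 replicates. The groups overlap for 5hmC, while every member point lies higher for 5mC and lower for unmodified C.

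For replicates 2 and 3, calls over the whole of a merged region had a higher 5hmC share where the replicate had a peak of its own. In replicate 2 the share was 37.0% in its own 95 peak regions (34.0 to 40.1) and 21.3% in the other member regions (14.4 to 29.6). In replicate 3 it was 36.0% in its own 64 (32.0 to 40.1) and 24.3% elsewhere (18.9 to 30.5). Replicate 1, of the whole serum antibody, had 20.2% in its own 5 regions (12.96 to 29.2) and 36.8% elsewhere (31.9 to 42.1). Those 5 regions are in Ntn3, Ephb3, Ntn5 (where the protein-coding gene Sec1 overlaps on the other strand), Ephb1 and Unc5a, and 72 of their 104 calls are in Ntn3. Without Ntn3 the share in the other 4 was 34.4% (11 of 32 calls, 18.6 to 53.2), so the lower value in replicate 1 rests on that region. One library of an antibody against 2 cannot be tested, and the antibody cannot be told apart from the library.

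Single genes were tested for their 5hmC share against that of all protein-coding genes in the same replicate, by a quasi-binomial model with an F test whose error is scaled to the spread between replicates. Of the 21 members with at least 10 calls in each of 2 replicates, 12 were above and 9 below that share, and 1 was called: Sema6c, lower. The background was 0.696% of 1293 genes called higher and 2.71% called lower. The median log2 odds ratio was 0.06 over the members tested and 0.03 over all genes tested. At an unadjusted p below 0.05 there were 3 of the 21 members, beside 196 of all 1293 genes tested.

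Sema6c (chr3:95067726-95084627), a membrane-bound class 6 semaphorin, had 1 region, at chr3:95080042-95080465, with 51 CpGs in 424 bp of coding exon 18, untranslated in other transcripts. Of 34, 66 and 49 calls in replicates 1, 2 and 3, 5hmC took 5, 14 and 5 (14.7%, 21.2% and 10.2%). All 3 libraries were below the 32.4% expected from all genes, with a log2 odds ratio of -1.32 (SE 0.45, adjusted p = 0.0338, quasi-binomial model). The DNA there was heavily methylated, with 5mC at 73.5%, 69.7% and 75.5%. The peak came from replicate 2 alone, and leaving out replicate 1 or 3 ended the call (log2 odds ratio -1.31 and -1.02, adjusted p = 0.0903 and 0.289, quasi-binomial model). Without replicate 2 the region was gone.

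Sema4d stood at the other end, with 5hmC in 5 of 6, 16 of 28 and 11 of 20 calls over its 5 regions (83.3%, 57.1% and 55.0%). Each library was above the 32.9% expected, the log2 odds ratio was 1.39 (SE 0.58), and it failed the adjustment (adjusted p = 0.207, quasi-binomial model). Ntn3 had a log2 odds ratio of -0.70 (SE 0.36, adjusted p = 0.298, quasi-binomial model), with shares of 13.9%, 28.3% and 55.6% that spread widely.

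Other members with many calls had shares nearer the general level. Ephb1 had 46.8%, 37.5% and 39.2% 5hmC of 62, 104 and 102 calls in replicates 1, 2 and 3, above the general share in all 3 but not called (log2 odds ratio 0.49, SE 0.25, adjusted p = 0.338, quasi-binomial model). Unc5b had 44.0%, 41.4% and 30.8% of 25, 128 and 65 calls. Ephb2 had 42.9%, 35.7% and 31.1% of 14, 115 and 61 calls. Ephb1 and its relative thus lay within each other's binomial intervals in every replicate. Plxnd1 was the steadiest of these, with 39.4%, 38.9% and 43.6% of 66, 54 and 39 calls. Slit3 had 27.6%, 36.7% and 30.2% of 29, 79 and 43 calls, so its many regions did not go with a high share.

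The strongest peak of Unc5b, at 6.70-fold the highest of any member, lay in intron 2 at chr10:60615591-60616450, where 3 of 11, 24 of 55 and 5 of 16 calls were 5hmC in replicates 1, 2 and 3. The neighbouring region over coding exon 5, at chr10:60614348-60615134, had no call in replicate 1, and 5hmC took 0 of 18 and 7 of 22 calls in the other libraries. The 2 regions were thus apart in replicate 2 and alike in replicate 3. The intron 2 region had a peak of replicate 2 alone and the exon 5 region a peak of replicate 3 alone. A region of Plxna4, a co-receptor partner of neuropilins, at chr6:32473685-32474561 in intron 2, had 7 of 13 and 8 of 19 calls in replicates 1 and 2 and no call in replicate 3.

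**Figure D5:**
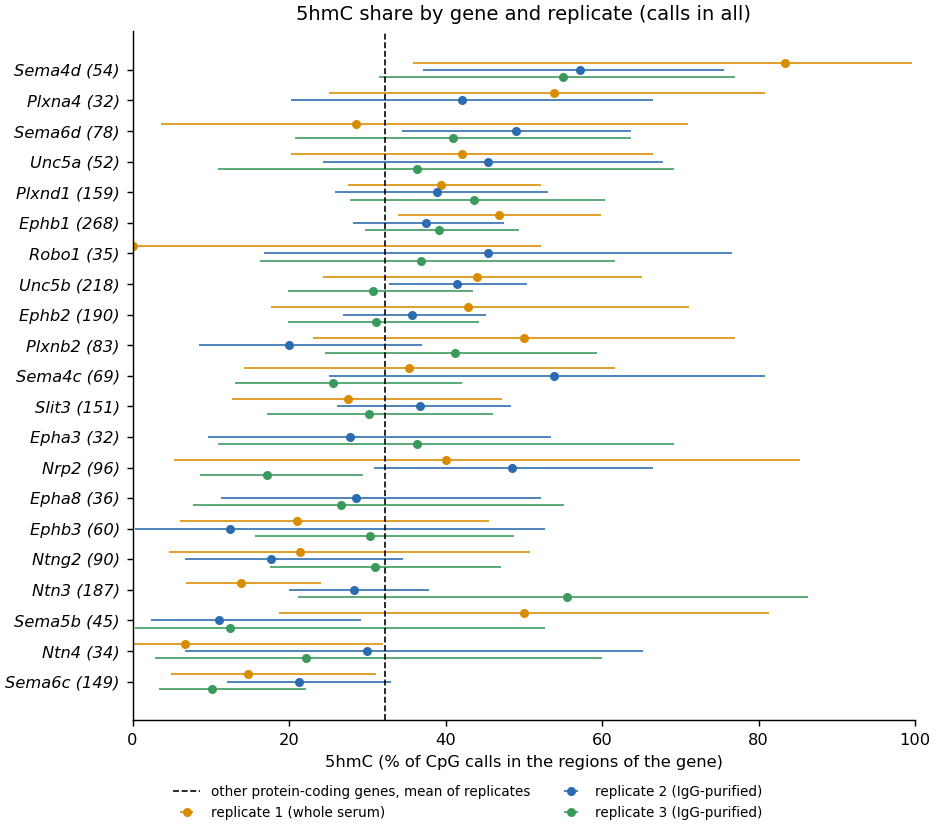
5hmC share of CpG calls (horizontal, percent) in the regions of each of the 21 members tested, by replicate, for replicates with at least 5 calls. Bars are exact binomial 95% intervals, the number after each gene is its calls over all replicates, and the dashed line is the mean share of other protein-coding genes. Sema6c lies left of the line in all 3 replicates and Sema4d right of it.

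The further members named here had 90 calls or fewer each. Sema4c, a class 4 semaphorin, had 6 of 17, 7 of 13 and 10 of 39 5hmC calls over 4 regions in its 10 kb. Sema5b had 5 of 10, 3 of 27 and 1 of 8, and Robo1, the Slit receptor, had 0 of 5, 5 of 11 and 7 of 19. Ntng2, a netrin-G anchored to the membrane, had 3 of 14, 6 of 34 and 13 of 42. Efna2 had 3 of 17 calls, all in replicate 3, and Rgma, a neogenin ligand, had 2 of 9 and 0 of 6 in replicates 2 and 3. Sema7a had 0 of 5 in replicate 2, and Neo1, the receptor of repulsive guidance molecules, had 1 call, which was 5hmC. Of these, Sema4c, Sema5b, Robo1 and Ntng2 had enough calls to be tested and were not called, and the others had too few calls to be tested.

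The libraries of the same antibody, replicates 2 and 3, were compared gene by gene with Fisher's exact test, two-sided, which compares 1 library with another and covers counting error only. No member of 16 with at least 10 calls in both was called, with a smallest adjusted p of 0.114 (background 0.680% of 1030 genes). At an unadjusted p below 0.05 there were 121 of the 1030 genes and 1 member. This was Nrp2, with 16 of 33 calls in replicate 2 (48.5%) and 10 of 58 in replicate 3 (17.2%, Fisher's exact p = 0.00322). No peaks of the 2 libraries overlapped in the gene, and the part of this in the difference was not tested.

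Downstream effectors carry guidance signals to the cytoskeleton. They were listed by hand, apart from the members and with earlier results of these data known, so that their counts are a description of this list. Of 44 effector genes 28 had a region (background 20%, a share that takes no account of gene length). Together the effectors had 193 regions against 63.2 expected from length, where the members had 155 against 137. The sum rests on few genes: the 8 called below hold 150 of the regions, the others 43 against 43.8 expected, and the median ratio of the effectors tested was 0.891. Of the 28 effectors tested 8 were called for more regions (background 8.95%) and none for fewer (background 3.28%). Tiam1, an activator of Rac downstream of Eph receptors, had 38 against 3.58 (adjusted p = 1.63e-22, exact Poisson test). Mical3, of the family of oxidoreductases that act downstream of plexins, had 26 against 2.00 (adjusted p = 2.12e-17, exact Poisson test). Trio, an activator of Rac that acts in netrin signalling, had 25 against 2.96 (adjusted p = 8.37e-13, exact Poisson test). With the expected number set by CpGs the ratio fell from 10.6 to 6.05 for Tiam1, from 12.99 to 7.84 for Mical3 and from 8.45 to 5.37 for Trio. The others were Ablim1 with 20 regions, Srgap3 with 14, Fyn with 12, Farp1 with 9 and Nck2 with 6. No effector of 14 was called for its 5hmC share, and the summed share of the effectors was 39.4%, 35.9% and 37.6% in replicates 1, 2 and 3.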

How the data were processed

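The authors aligned nanopore reads to mm39 (GRCm39), called narrow peaks with MACS2 on each replicate against untreated DNA of the same sample, and counted modified bases with modkit. The deposited peak lists give fold enrichment (a ratio), −log10 of p and q values and a display score. The deposited base-call counts give 5hmC, 5mC and C at forward-strand CpG sites in peaks of any replicate, with the percent modified. The methods state that masked repeats were left out. Here, peaks overlapping by at least 1 bp were merged and assigned by midpoint to GENCODE M39 genes. All 140428 CpG entries matched a reference CpG. Exact binomial intervals (95%) cover counting error only, since calls on a read are not independent. Gene tests ran over all protein-coding genes with Benjamini-Hochberg adjustment at 0.05: a quasi-binomial model (dispersion 1.92, regions with 20 or more calls at a CpG outside the offset), an exact Poisson test and Fisher's exact test. Named were members called, with shared or first-exon or upstream regions, the 12 with most regions (13 with a tie at 4 regions) and each family's member with most calls. Members and lists were chosen with earlier results of these data known. Peak scores and −log10 values as deposited entered no test. The tools were scipy 1.17.1, pandas 2.3.3, numpy 2.4.6 and pysam 0.24.0 under Python 3.11.15.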

Additional observations from a re-analysis of the deposited data

How the results depend on the processing

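Members called for their 5hmC share numbered 1, and 1 with a minimum of 5 or 20 calls or an offset over all regions (2.69%, 5.57% and 3.87% of all genes tested). They numbered 4 with a dispersion of 1 (Sema6c, Ephb1, Sema4d and Ntn3), where 15.9% of all 1293 genes tested were called. In own peaks only they numbered 0 of 14 tested (2.82% of all genes tested). Without replicates 1, 2 and 3 they numbered 0 of 16, 0 of 6 and 0 of 10 tested (2.65%, 3.18% and 3.86%). Members called for their number of regions were 7, 8 of 34 tested with the expected number by CpG (10.7% of all genes tested) and 0 of 8 with peaks of at least 4-fold enrichment (0.772%). They were 2 to 7 without 1 replicate (5.45% to 11.96% of genes, 17 to 34 members tested), 4 of 24 in replicate 2 alone (8.92%), 2 of 17 in replicate 3 alone (5.08%) and 12 of 76 over all protein-coding genes (1.83%), the last 3 chosen after seeing the data. The comparison of replicates 2 and 3 called 0 members at each minimum. Of all genes tested it called 0.680% at 10 calls, 0.691% at 20 and 0.255% at 5. The member regions numbered 155, 37 with peaks of at least 4-fold enrichment and 69 to 151 without 1 replicate. Their 5hmC share of 33.7% was 36.1% in own peaks only, 35.1% at CpG sites with at least 3 calls and 34.4% to 36.0% without 1 replicate.

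Differences from other genes are in percentage points, with settings added after seeing the data. For 5hmC (1.42) they were 4.43 at CpGs inside a replicate's own peaks only, 3.71 at CpG sites with at least 3 calls, 3.76 in introns, 4.30 without the Ntn3 and Sema6c regions, 2.61 as the mean of single regions and 1.49 to 4.26 without 1 replicate. The difference in 5hmC was above 0 in every library inside own peaks, over single regions and, where it had to rise, without the Ntn3 and Sema6c regions, but not over all regions, in introns or at sites with at least 3 calls. For 5mC (6.60) they were 2.245, 10.1, 1.83, 3.01, 4.46 and 5.02 to 6.32 in that order, below 0 in at least 1 library in own peaks, in introns and over single regions. For unmodified C (-8.02) they were -6.68, -13.8, -5.59, -7.31, -7.07 and -9.70 to -7.51, below 0 in every replicate under these settings. The causes were not tested. No paired analysis was possible because there is 1 group of samples, and members and other genes were instead differenced within each library. Depth limits single genes, since the median CpG site had 1 call.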
